A study of Mus musculus with 48 samples.

Results

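Dnase1l3 Ms4a7 macrophages are the cells chosen here by counts of their own unique molecular identifiers (UMIs), from both deposited tables taken separately. A cell with 500 or more genes was kept when it had at least 2 Ms4a7 UMIs and at least 1 Dnase1l3 UMI, fewer than 5 Ly6c2 UMIs per 10000 UMIs of the cell, and fewer than 10 Gpnmb UMIs per 10000, with a further limit of that kind that is not described. It also had at most 1 UMI of Nos2 and Inhba together, no UMI of P2ry12, Tmem119, Cd3e, Cd3d or Cd3g, and at most 1 UMI of Mki67 and Top2a together. The rule found 258 of 14261 cells, 71 of 8726 in the mix of sorted cells and 187 of 5535 in the CD11b+ cells. Since measured counts chose the cells, their Dnase1l3 and Ms4a7 levels are a description and support nothing.

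The study put GL261 cells, a mouse glioma line, into C57BL/6 mice, which by its methods were males 6 weeks old, and compared tumours whose cells carried a negative-control short hairpin RNA (shNC) with tumours whose cells carried one against P-selectin, the adhesion molecule encoded by Selp (shSELP). Single-cell 3′ libraries of the glioblastoma tumours gave 2 experiments: by the labels, on day 21 CD11b+ cells alone, with 1 library per group, and on day 16 a mix of CD11b+ cells, other CD45+ cells and cancer cells in equal amounts, with 2 libraries per group. The study's methods give another day, the same for both. Each library was sequenced as 8 entries, which were joined. The descriptions of 7 of the 8 CD11b+ shSELP entries say negative control; their titles, genotypes and source names and the column names of the count table all say shSELP and were followed. Brains of a group were pooled before sorting, so a library does not stand for an animal. Whether the paired libraries of the mix are separate animals or repeat runs of the same cells is not in the labels. The hairpins act in the tumour cells, and the macrophages are the hosts' own.

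The libraries of the mix held 22945972 and 22626413 UMIs in shNC and 17398121 and 25589350 in shSELP, and the CD11b+ libraries held 12628177 in shNC and 11445676 in shSELP. The Dnase1l3 Ms4a7 macrophages numbered 33 and 25 in the shNC libraries of the mix, 8 and 5 in its shSELP libraries, and 98 and 89 in the CD11b+ shNC and shSELP libraries. Their UMIs summed to 422821, 366521, 105966 and 84192 in the mix and to 560321 and 435306 in the CD11b+ libraries. The cells of the mix were deeper, with a median of 11442 to 15179 UMIs per cell against 5502 and 4712 in the CD11b+ libraries. No barcode of these cells was shared between libraries of an experiment, and between 0 and 3 barcodes of any cells were.

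Macrophages in a glioma come from resident microglia, from macrophages of the meninges and vessels, and from blood monocytes that enter the tumour. MS4A7 is a membrane protein of the tetraspanning MS4A family, found in macrophages of the brain's borders and in monocyte-derived macrophages and low in resting microglia. DNASE1L3 is a secreted nuclease of dendritic cells and macrophages that digests DNA in chromatin and in the debris of dead cells, and its loss leads to antibodies against DNA. The remaining genes given as markers are Cd72, an inhibitory lectin-like receptor known from B cells, Slamf9, a receptor of the SLAM family, Tmem176b, a membrane protein of endosomes related to the MS4A family, and Clec4a2, an inhibitory C-type lectin receptor. In the mouse genome mm10, Dnase1l3 lies on chromosome 14 at 7964533 to 7994573 and Ms4a7 on chromosome 19 at 11321039 to 11336146, both on the minus strand. Cd72 lies on chromosome 4 at 43446462 to 43454628, Slamf9 on chromosome 1 at 172475358 to 172478575, Tmem176b on chromosome 6 at 48833818 to 48841496 and Clec4a2 on chromosome 6 at 123106428 to 123143999.

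The macrophage label held in every library. The 12 pan-macrophage genes were each found in each of the 6 libraries, with summed levels of 31531, 31496, 28273 and 36464 CPM in the mix (a gene's UMIs over all UMIs of these cells in a library, scaled to the usual CPM unit) and 31262 and 27746 in the CD11b+ cells. C1qa, a subunit of complement C1q made by tissue macrophages, had a UMI in 87.5 to 100% of the cells of each library. Of the microglia list, Slc2a5 was at 0 UMIs in every library and Sall1, a transcription factor of microglia, had at most 1. Other members of that list were present. Cx3cr1 had a UMI in 25 of 33, 15 of 25, 7 of 8 and 1 of 5 cells of the mix. Fcrls had one in 3, 5, 3 and 2 of those cells.

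Genes of lymphocytes, neutrophils, dendritic cells, tumour cells, vessels and glia were low, and the border macrophage and monocyte lists were not. The border macrophage list summed to 736, 649, 340 and 1307 CPM in the mix and to 766 and 652 CPM in the CD11b+ libraries, with Cd163 and Lyve1 at 0 throughout. Clec4n of that list had 224, 140, 8 and 34 UMIs in the mix, where F13a1 of the list had 2, 7, 1 and 11. The Clec4n UMIs were in 26 of 33, 21 of 25, 3 of 8 and 4 of 5 cells. The monocyte list summed to 1170 to 3323 CPM, with Vcan at 0, and Ly6a, its leading gene, had a UMI in all cells of the mix and in 95 of 98 and 83 of 89 CD11b+ cells. The dendritic cell list reached 23.8 to 115 CPM with Flt3, Cd209a and Itgae at 0, the T and NK cell list 0 to 21.3 CPM, the B and plasma cell list 10.7 to 94.4 CPM, the neutrophil list 25.3 to 83.1 CPM, the list of GL261 tumour cell genes 4.59 to 71.3 CPM and the vessel and glia list 32.2 to 90.0 CPM.

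A pair of cells stood apart from the others, and they belong to opposite groups. In mix shSELP 2, 1 of the 5 cells reached 54.98 UMIs per 10000 for the border macrophage list, where the next cell of the mix had 30.3. That cell carried all 24 UMIs of Mrc1, the mannose receptor, all 9 of Cd209f and all 27 of Tmem176b in its library. In mix shNC 2, 1 cell had 52.6 UMIs per 10000 for the dendritic cell list and the lowest pan-macrophage level of the mix, 11.5 per 10000, and 1 cell held all 32 UMIs of Ccr7, the receptor that guides dendritic cells to lymph nodes. The tests below are given with all cells, and for some genes and lists, among them Tmem176b, Ccl2 and Ccl4, also without the shSELP cell. No alternative was run without the shNC cell alone.

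Selp itself had 0 UMIs in these cells in all 6 libraries, so its counts say nothing on the knockdown in the tumour cells. Selplg, the gene of the P-selectin ligand PSGL-1, was present at 125, 139, 94.4 and 166 CPM in the mix and at 107 and 68.9 CPM in the CD11b+ libraries. Its log2 difference between shSELP and shNC in the mix was -0.05 (SE 0.36, adjusted p 0.989 by edgeR, with the libraries of the groups overlapping).

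Cells lay close to the Dnase1l3 threshold on both sides, and whether they form a continuum was not tested. Of the cells meeting every other condition, 44, 32, 30 and 24 in the mix and 287 and 272 in the CD11b+ libraries had no Dnase1l3 UMI, and 9, 9, 5, 2, 52 and 53 were just inside the threshold with 1 UMI. With 3 or more UMIs there were 19, 11, 2, 3, 21 and 22. Just outside the Ms4a7 threshold, 5, 2, 1, 3, 11 and 20 cells had 1 Ms4a7 UMI, and just inside it 4, 2, 1, 1, 14 and 11 had 2. The requirement for no P2ry12 or Tmem119 UMI, genes of microglia, took the libraries of the mix from 158, 86, 54 and 42 cells to 44, 28, 14 and 8.

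Dnase1l3 was rare in T cells and frequent in cells with Ms4a7. T cells of the mix without an Ms4a7 UMI carried a Dnase1l3 UMI in 0.683, 1.77, 0.726 and 1.29% of cells, at median depths of 5015 to 7677 UMIs, and T cells with or without Ms4a7 in 2.17, 2.74, 1.38 and 1.66%. Cells with at least 2 Ms4a7 UMIs carried one in 40.4, 36.2, 25 and 37.6%, at higher median depths of 12742 to 19043 UMIs. With each cell thinned to 3000 UMIs the values were 0.548, 0.775, 0.279 and 0.443% of T cells without Ms4a7 and 16.7, 13.9, 10.6 and 12.7% of the cells with at least 2 Ms4a7 UMIs. Dendritic cells, a known source of the enzyme, had a UMI in 46.3, 29.0, 31.4 and 50.7% of cells. Those gates for T cells and dendritic cells were chosen after the data were seen.

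Compared with other Ms4a7 macrophages of the same library, the Dnase1l3 Ms4a7 macrophages had more of the markers that the rule did not read, more of the interferon-gamma-induced chemokine Cxcl9, more C1q and less of the genes of monocytes and of lipid-loaded macrophages. The rule takes out cells high in Ly6c2 or Gpnmb, and the other Ms4a7 macrophages still hold them, so lower monocyte and lipid genes are partly built in by the selection. These differences are descriptions in the 6 libraries without a test. Levels were CPM of summed UMIs, with a pseudocount of 20 CPM in each log2 ratio, and the other Ms4a7 macrophages were 2065 cells that met the Ms4a7, P2ry12, Tmem119, Cd3 and cycling conditions and not the whole rule. Among 1387 genes that averaged 100 CPM or more in either population, 8 (0.577%) were at least 2-fold higher with the same sign in all 6 libraries and 17 (1.23%) at least 2-fold lower. These counts depend on the filter: with 100 CPM required of the mean of both populations they were 6 and 12 of 1297 genes, and with 100 CPM required in each they were 4 and 8 of 1222, filters chosen after the data were seen.

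Cd72 was the most abundant of the 4 markers that the rule did not read. It stood at 516, 543, 368 and 404 CPM in the mix and 557 and 496 CPM in the CD11b+ cells, against 369, 262, 97.8, 122, 321 and 210 CPM in other Ms4a7 macrophages. Its mean log2 ratio was 1.11 (SD 0.48, n = 6 libraries, higher in 6 of 6). Slamf9 was at 267, 224, 274 and 119 CPM in the mix and 234 and 179 CPM in the CD11b+ cells, a mean log2 ratio of 0.74 (SD 0.45, higher in 6 of 6). Both receptors were thus above the other macrophages in every library.

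Tmem176b and its neighbour Tmem176a went together. Tmem176b was at 196, 68.2, 236 and 321 CPM in the mix and 207 and 152 CPM in the CD11b+ cells, a mean log2 ratio of 1.19 (SD 0.65, higher in 6 of 6), and Tmem176a, which overlaps it on chromosome 6 on the opposite strand, had 1.08 (SD 0.68). The single cell of mix shSELP 2 supplied all of that library's UMIs for both. Clec4a2 was the weakest marker, at 149, 169, 18.9 and 107 CPM in the mix and 141 and 136 CPM in the CD11b+ cells, with a mean log2 ratio of 0.40 (SD 0.55, higher in 5 of 6); it was lower only in mix shSELP 1, where it had 2 UMIs.

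**Figure D1:**
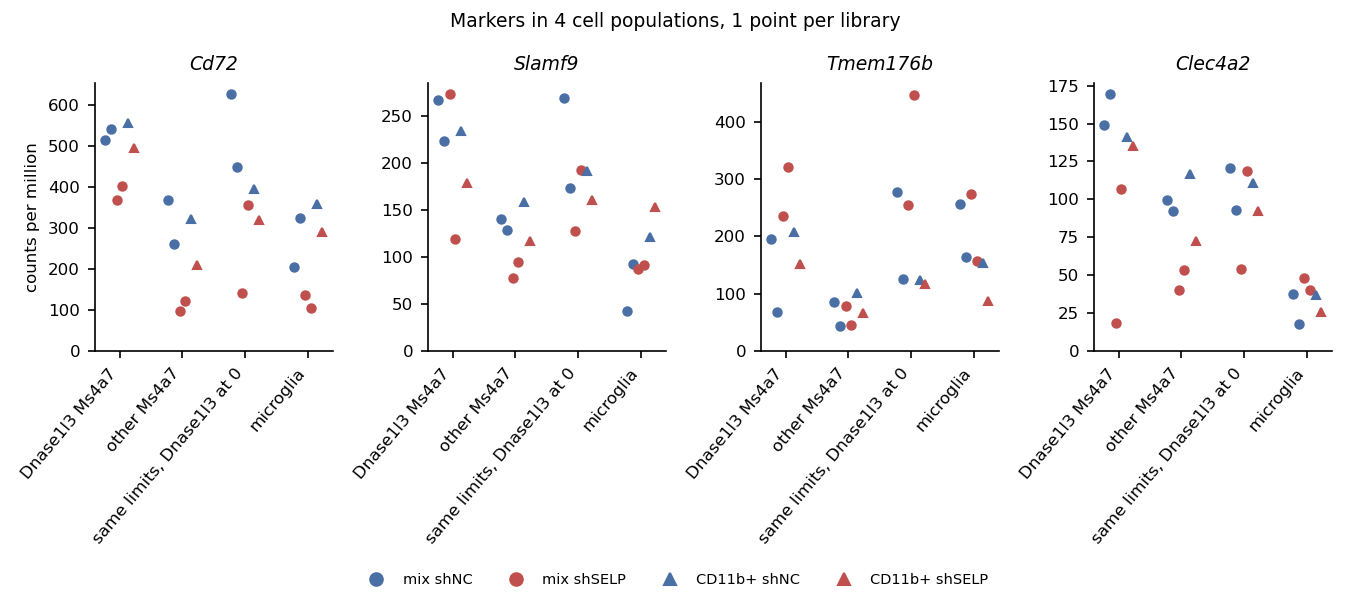
Levels in CPM (y axis, linear) of the 4 markers that the rule did not read, in 4 cell populations (x axis), 1 point per library; circles are libraries of the mix, triangles CD11b+ libraries, blue shNC and red shSELP. Cd72 lies between 368 and 557 in the Dnase1l3 Ms4a7 macrophages, and Tmem176b is as high in cells that meet the same limits with Dnase1l3 at 0.

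The markers separated the cells less from their nearest neighbours, the 689 cells that met the same limits with no Dnase1l3 UMI. Those neighbours were shallower, with median UMIs of 7281, 9239, 5620.5 and 4490.5 in the mix and 4500 and 4061.5 in the CD11b+ libraries. The Dnase1l3 Ms4a7 macrophages had 12308, 14846, 11442.5 and 15179 in the mix and 5502 and 4712 in the CD11b+ libraries. Against these the mean log2 ratio was 0.41 for Cd72, 0.18 for Slamf9, 0.12 for Clec4a2 and -0.13 for Tmem176b. Ccl8, Vcam1, Cxcl9, Fgl2 and Itgax, in contrast, were at least 0.74 above them.

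The genes highest against other Ms4a7 macrophages included adhesion and chemokine genes. Ccl8, a chemokine for monocytes and T cells, was at 546, 417, 746 and 4561 CPM in the mix and 232 and 227 CPM in the CD11b+ cells, against 194, 139, 85.8, 126, 117 and 220 CPM, a mean log2 ratio of 1.93 with the large SD of 1.75. A single cell held 138 of the 231 Ccl8 UMIs in mix shNC 1, 116 of the 153 in mix shNC 2 and 268 of the 384 in mix shSELP 2, the library with the highest level. Vcam1, an adhesion molecule that holds leukocytes, was at 203, 84.6, 170, 261, 99.9 and 110 CPM against 23.7 to 33.4 CPM, a mean log2 ratio of 1.77 (SD 0.56). Cxcl9, which draws T cells through CXCR3, was at 4070, 3375, 4407, 1972, 3539 and 4137 CPM against 1260 to 1797 CPM, a ratio of 1.13 (SD 0.36). Vcam1 and Cxcl9 were higher in each of the 6 libraries. In mix shSELP 2, 1 of the 5 cells held 111 of the 166 Cxcl9 UMIs, so the sign there leans on that cell.

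Further genes above the other macrophages were Cd81, a tetraspanin (log2 ratio 1.32, SD 0.68), Herpud1, of the degradation of misfolded proteins at the endoplasmic reticulum (1.26, SD 0.15), and Ccl12, a chemokine for monocytes (0.94). Fgl2 (0.79), Ckb, the brain-type creatine kinase (0.70), Itgax, the integrin CD11c (0.69), Camk1 (0.65) and C1qa (0.63, SD 0.17) followed. A single cell held 86 of the 108 Ccl12 UMIs in mix shSELP 1 and 63 of the 91 in mix shSELP 2. Against the cells under the same limits with Dnase1l3 at 0, Ccl12 (0.03), Ckb (0.17) and Tmem176a (-0.09) were near level. Cd81, Ckb, Ccl12, Camk1, Herpud1 and C1qa were lower than in microglia, with log2 ratios of -1.97, -1.49, -0.59, -0.55, -0.45 and -0.21. C1qa ran from 7298 to 8740 CPM against 4731 to 6416 CPM, a narrow range in both populations.

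The 15 genes lowest against other Ms4a7 macrophages came from several lists, with Chil3 and Fn1 in the monocyte list and Spp1 and Fabp5 in the list of lipid-associated macrophages. Chil3, a chitinase-like protein of monocytes and alternatively activated macrophages, had a mean log2 ratio of -2.67 (SD 0.52), Fabp5, a fatty acid carrier, -1.93 (SD 0.32), F13a1, a coagulation factor of monocytes, -1.75, and Fn1, fibronectin, -1.35 (SD 0.53). Spp1, osteopontin, was the most variable, at 68.6, 540, 906 and 0 CPM in the mix and 323 and 161 CPM in the CD11b+ cells against 1099 to 1768 CPM, with a mean of -2.88 (SD 2.01). In mix shSELP 1, 74 of its 96 UMIs came from 1 cell. Thbs1 (-2.37), Slpi (-2.09), Ccl6 (-1.61), Rgcc (-1.56), S100a6 (-1.52), F10 (-1.51), Ahnak (-1.43), Clec4d (-1.25), Anxa2 (-1.19) and Prdx6 (-1.10) were also lower in all 6 libraries. Against the cells that met the same limits without Dnase1l3, the log2 ratio was -1.48 for Thbs1, -1.32 for Chil3, -1.08 for Spp1, -1.06 for Fn1, -1.02 for Ahnak, -1.01 for F13a1 and -0.999 for Ccl6, and from -0.81 (Clec4d) to -0.06 (Fabp5) for the others.

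**Figure D2:**
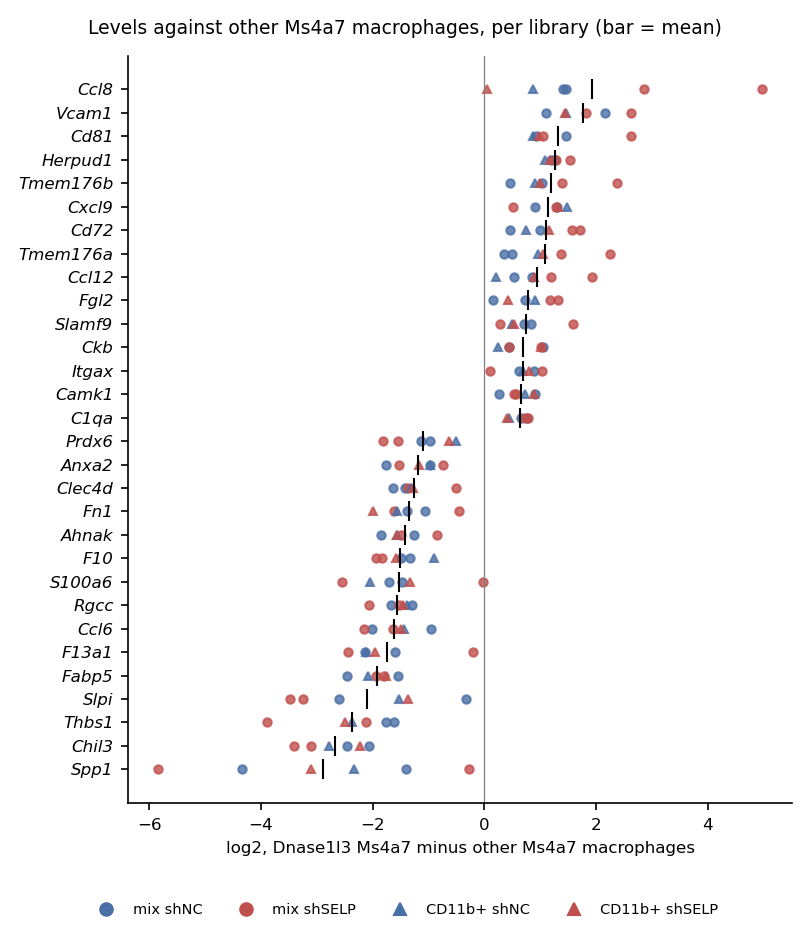
Log2 ratio of the level in Dnase1l3 Ms4a7 macrophages to that in other Ms4a7 macrophages of the same library (x axis, pseudocount 20 CPM) for the 15 highest and 15 lowest named genes (y axis); circles are mix and triangles CD11b+ libraries, blue shNC and red shSELP, and the bar is the mean of 6. Herpud1 and C1qa are tight around their means of 1.26 and 0.63, and Ccl8 and Spp1 are spread widely.

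By gene list, antigen presentation on MHC class II was the clearest group above the other macrophages. All 6 measured class II genes had a positive mean, with a median log2 ratio of 0.49 against -0.02 over all 1387 genes, of which 637 were positive, and none reached 2-fold. The summed class II level was 63351, 49569, 30746 and 60065 CPM in the mix and 43393 and 34160 CPM in the CD11b+ cells, against 36958, 32074, 36906, 45250, 23090 and 21294 CPM in other Ms4a7 macrophages. It was therefore higher in 5 libraries and lower in mix shSELP 1. Cd74, the invariant chain, made up the largest share of that sum in each library.

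Other lists varied. All 3 measured genes of the microglia list were higher (median 0.43), and of 11 pan-macrophage genes 7 were (0.31). Of 13 measured genes of MHC class I and peptide loading 12 were higher (median 0.13), and of 6 interferon-gamma-induced GTPases 5 were (0.12). Of 11 type I interferon genes 4 were higher (-0.10), of 11 complement genes 5 (-0.03), and of 15 chemokines 9 (0.17), 2 of them at least 2-fold. Among nucleases, the family of Dnase1l3 in function, 3 of 4 measured genes were higher (median 0.12). Pld4, an endolysosomal exonuclease that limits sensing of nucleic acids, had the highest ratio of those 4, at 0.49 (SD 0.34, higher in 6 of 6), while Dnase2a, the lysosomal nuclease, had 0.17. None of the 12 glycolysis genes (median -0.34), 5 monocyte genes (-1.35) and 7 acute-phase genes (-0.42) had a positive mean, and of 9 genes of lipid-associated macrophages 1 did (-0.57). Against the cells under the same limits with Dnase1l3 at 0, the medians of these lists were 0.07 for glycolysis, -1.01 for monocyte, -0.17 for acute-phase and -0.06 for lipid-associated genes. There class II had 0.28 and MHC class I 0.27 with all 6 and all 13 genes higher. Complement had 0.29 with 6 of 11, type I interferon 0.17 with 8 of 11 and lysosome genes 0.16 with 16 of 16. Nucleases had 0.31 with 4 of 4. Lists on the other side included border macrophage genes (-0.63, 0 of 4 higher), immediate early genes (-0.22, 1 of 12) and MS4A genes with Tmem176 (-0.12, 0 of 6). Over all 1387 genes 674 were higher in that comparison, with a median of -0.007.

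Within the MS4A family the cells showed no general increase. Of 6 measured members with Tmem176, 2 were higher, namely Tmem176a and Tmem176b, and the median was -0.07. Ms4a6c was at 885, 835, 557, 1033, 705 and 894 CPM, with a log2 ratio of -0.05. Of 7 myeloid C-type lectins 2 were higher (median -0.07), of 5 SLAM family genes 4 (0.04), of 12 inhibitory receptors and ligands 6 (0.00), of 5 Fc receptors 3 (0.06) and of 16 lysosome genes 7 (-0.08).

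Single cells varied around these levels. The 6 markers together, including those the rule read, made up a library median of 16.4 to 26.7 UMIs per 10000, and single cells ran from 5.45 to 73.8. A Cd72 UMI was found in 97.0, 92, 62.5 and 80% of the cells in the mix and in 86.7 and 75.3% in the CD11b+ libraries, against 39.3 to 57.4% of other Ms4a7 macrophages. These shares were not adjusted for depth. The other Ms4a7 macrophages were shallower in each library, with median UMIs of 8914.5, 9699, 9058.5 and 14562 in the mix and 4425 and 3956 in the CD11b+ libraries. Tmem176b was found in 60.6, 28, 75 and 20% and in 53.1 and 37.1%. UMIs of the MHC class II list per 10000 ran from 10.3 to 1108 across cells of the mix, and their library medians of 662, 505, 304 and 627 put mix shSELP 1 lowest.

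The first comparison between tumours asks whether P-selectin knockdown went with a different share of Dnase1l3 Ms4a7 macrophages. In the mix both shSELP libraries had fewer of them than both shNC libraries. They were 1.51% (exact 95% interval 1.04 to 2.12) and 1.15% (0.744 to 1.69) of cells with 500 or more genes in shNC, and 0.365% (0.158 to 0.719) and 0.230% (0.0747 to 0.536) in shSELP. The group means were 1.33% ± 0.258 and 0.298% ± 0.0957 (SD, n = 2 libraries each), a difference of -1.03 percentage points. The shNC mean was 4.47 times the shSELP mean, and the groups did not overlap.

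The exact two-sided permutation p was 0.333, the smallest that 2 against 2 libraries allow. Among cells with at least 2 Ms4a7 UMIs the shares were 4.53, 3.96, 1.74 and 0.787%, a difference of -2.98 percentage points (exact permutation p 0.333). With each cell first thinned to 3000 UMIs the group means were 1.86 and 0.805%, and the shNC mean was 2.31 times the shSELP mean. In the CD11b+ libraries, with 1 library per group, the shares lay close together, at 3.59% (2.92 to 4.36) in shNC and 3.17% (2.56 to 3.89) in shSELP, and their intervals overlap. The binomial intervals cover counting error only, and a share of a sorted and mixed sample does not give cells per tumour.

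**Figure D3:**
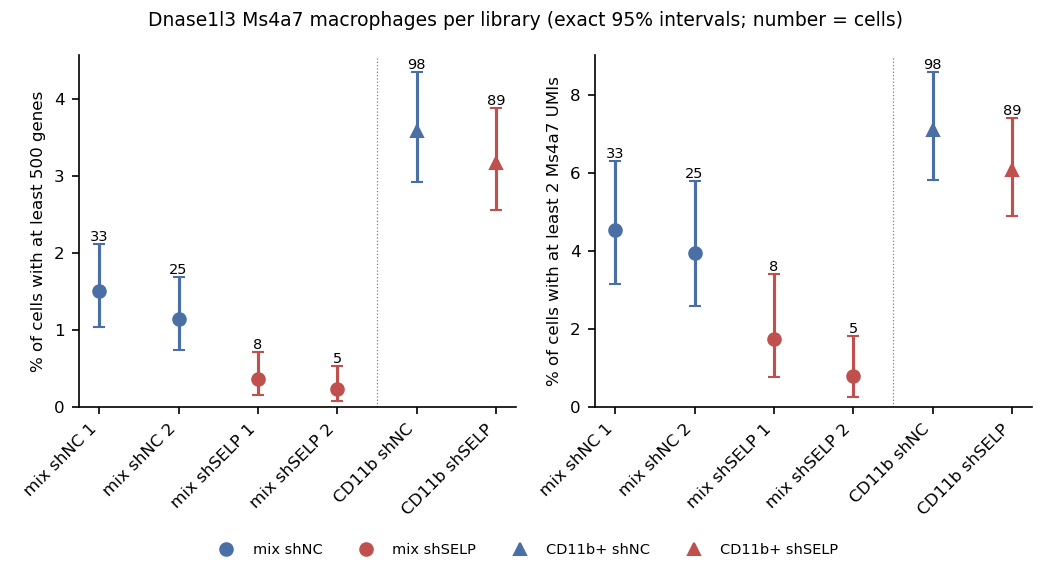
Share of Dnase1l3 Ms4a7 macrophages in % (y axis, linear from 0) in each library (x axis), of cells with 500 or more genes (left) and of cells with at least 2 Ms4a7 UMIs (right); bars are exact 95% binomial intervals and the number above each is the count of cells. The shSELP libraries of the mix, with 8 and 5 cells, lie below both shNC libraries, and the CD11b+ libraries overlap.

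The libraries differed along the steps of the rule. Cells with at least 2 Ms4a7 UMIs numbered 728 and 632 in shNC and 460 and 635 in shSELP libraries of the mix. After the Dnase1l3 condition 294, 229, 115 and 239 remained, and at the end 33, 25, 8 and 5. Mix shSELP 2 was thus within the range of shNC after the Dnase1l3 condition and lost a larger part of its cells at the later conditions, so its low share depends on those limits. Mix shSELP 1 began with fewer Ms4a7 cells.

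The second comparison asks which genes differed between shSELP and shNC within the Dnase1l3 Ms4a7 macrophages of the mix. C1qa, a gene of the complement starter C1q, was level between the groups, and several chemokines were higher in both shSELP libraries without passing the edgeR test. DESeq2 called 1 chemokine, Ccl2. C1qa was at 8304 and 8035 CPM in shNC and 8125 and 8350 CPM in shSELP, and C1qb at 6196 and 5921 CPM in shNC and 5332 and 8255 CPM in shSELP. Ccl5, which draws T cells and monocytes, was at 3278 and 1157 CPM in shNC and at 4483 and 12175 CPM in shSELP.

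The edgeR test called 0 of 2972 genes (0%) at an adjusted p under 0.05, with 201 at an unadjusted p under 0.05, and DESeq2 called 3, namely Mrc1, Ccl2 and Ttr. Of the 2972 genes 1486 were higher in shSELP, and the median log2 difference was 0.00. Leaving out 1 library at a time gave 13 called genes without mix shNC 1, 13 without mix shNC 2, 4 without mix shSELP 1 and 2 without mix shSELP 2. A block for the replicate number gave 0. The sums of the shSELP libraries rest on 8 and 5 cells, and how far the p-values measure spread between animals is unknown.

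Of the markers none passed. Cd72 had a log2 difference of -0.45 (SE 0.24, adjusted p 0.743), with both shSELP libraries below both shNC libraries, Slamf9 -0.29 (adjusted p 0.896, groups overlapping) and Clec4a2 -1.42 (unadjusted p 0.0372, adjusted p 0.708, both shSELP libraries lower). Tmem176b had 1.04 (adjusted p 0.733, both shSELP libraries higher), and 0.015 without the cell of mix shSELP 2 that held all its UMIs there. In other Ms4a7 macrophages of the same libraries Cd72 fell by 1.44 on the log2 scale (adjusted p 0.0184, both shSELP libraries lower). The difference between these responses was 0.92 and did not pass its test (adjusted p 0.835).

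Among 15 chemokines tested 9 were higher in shSELP and 6 had an unadjusted p under 0.05, with 0 called by edgeR, 1 (Ccl2) by DESeq2 and a median of 0.25. Without the cell of mix shSELP 2 that stood apart, 7 were higher, 4 had an unadjusted p under 0.05 and the median was -0.01, so the higher count and median rested on that cell, which held 180 of 199 Ccl2, 146 of 148 Ccl7, 268 of 384 Ccl8 and 91 of 195 Ccl4 UMIs of its library. Of all 2993 genes tested without that cell, 1515 were higher and 163 had an unadjusted p under 0.05 by edgeR. In mix shSELP 1, 1 cell held all 146 Cxcl13 UMIs. The summed level of the chemokines was 23331 and 15377 CPM in shNC and 32124 and 36619 CPM in shSELP. Without the cell that stood apart mix shSELP 2 had 33213 CPM, so the groups did not overlap either way. Ccl5 had a log2 difference of 1.91 (SE 0.60, adjusted p 0.666), and in other Ms4a7 macrophages it rose by 1.43 (adjusted p 0.0208); both shSELP libraries were higher in both. In mix shSELP 1, 219 of the 475 Ccl5 UMIs came from 1 cell, and in mix shSELP 2, 586 of the 1025. In mix shNC 1, 1 cell held 466 of 1386. The median cell had 13 and 9 Ccl5 UMIs in shNC and 6 and 105 in shSELP. Cxcl2, a neutrophil attractant and the most abundant chemokine in 5 of the 6 libraries, was at 7474 and 3765 CPM in shNC and 8522 and 8041 CPM in shSELP, a difference of 0.56 (adjusted p 0.755).

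The genes that DESeq2 called were chosen here after their values were seen, and each leaned on few cells or on 1 library. Ccl2, the main attractant of monocytes, was at 428 and 235 CPM in shNC and 1132 and 2364 CPM in shSELP (log2 2.40, SE 0.44, adjusted p 0.358 by edgeR, both shSELP libraries higher). In mix shSELP 2, 180 of its 199 UMIs came from the cell that stood apart, and without that cell the difference was 1.11 (adjusted p 0.860). Mrc1 was at 26.0, 38.2, 170 and 285 CPM (log2 2.80, adjusted p 0.353), with all 24 UMIs of mix shSELP 2 in the same cell; without that cell the gene did not pass the filter on low counts and has no value. Ttr, the thyroid hormone carrier made by choroid plexus, had a log2 difference of 4.13 (adjusted p 0.574), and of 1.41 without mix shSELP 1.

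The other lists leaned to either side. All 4 tested genes of the microglia list were higher in shSELP (median 0.22, 1 with an unadjusted p under 0.05). They were also higher without the cell of mix shSELP 2 that stood apart (median 0.30). Without that cell the list summed to 1017 and 1391 CPM in shNC and 2454 and 633 CPM in shSELP, so the groups overlapped. Of 7 class II genes 1 was higher in shSELP (median -0.16, 0 with an unadjusted p under 0.05), with Cd74 at 22132 and 17336 CPM in shNC and 11598 and 23541 CPM in shSELP (log2 -0.15, adjusted p 0.942, groups overlapping). Of 13 complement genes 10 were higher (median 0.22, 4 with an unadjusted p under 0.05). Without the cell of mix shSELP 2 that stood apart 10 of 12 were higher (median 0.19), with 0 at an unadjusted p under 0.05. Of 16 type I interferon genes 9 were higher (0.10) and of 9 interferon-gamma GTPases 5 (0.08). Gbp2, which attacks the membranes of vacuoles that hold pathogens, had 0.65 (unadjusted p 0.0299, adjusted p 0.689, both shSELP libraries higher). Of 6 costimulation genes 3 were higher, and Cd40, the receptor for help from T cells, had -1.45 (unadjusted p 0.0141, adjusted p 0.666) at 128 and 191 CPM in shNC and 75.5 and 35.6 CPM in shSELP. All 5 SLAM family genes were lower (median -0.29), and 6 of 9 C-type lectins were (median -0.84, 2 with an unadjusted p under 0.05). Without the cell that stood apart 2 of the 9 lectins were higher (median -0.71), and 4 had an unadjusted p under 0.05. Of all 2993 genes tested without that cell, 1515 were higher and 163 had an unadjusted p under 0.05 by edgeR.

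Of 17 glycolysis genes 10 were higher in shSELP (median 0.25), of 18 lysosome genes 5 (-0.07), of 15 MHC class I genes 8 (0.04), of 7 nucleases 4 (0.25), of 8 nucleic acid sensors 3 (-0.02) and of 15 genes of phagocytosis and clearance 6 (-0.04). Of 11 lipid handling genes 4 were higher (-0.08), of 7 iron and heme genes 5 (0.31), of 14 inhibitory receptors and ligands 4 (-0.18), of 6 Fc receptors 3 (0.01) and of 15 transcription factors 7 (-0.08). For handling and stress, 5 of 13 immediate early genes were higher (-0.05, 4 with an unadjusted p under 0.05) and 7 of 8 heat shock genes were (0.32). No gene of the dendritic cell, T and NK cell, B and plasma cell or tumour cell lists passed the filter on low counts.

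The third comparison asks whether the response of these cells differed from that of other Ms4a7 macrophages in the same libraries. The edgeR test of that difference called 1 of 6678 genes (0.015%), Ccl4, with 354 genes at an unadjusted p under 0.05, and DESeq2 called 2, Ccl2 and Ccl4. Ccl4, or MIP-1 beta, draws T cells, NK cells and monocytes. It was at 2017 and 758 CPM in the Dnase1l3 Ms4a7 macrophages of shNC and at 3803 and 2316 CPM in those of shSELP, and at 2684, 1085, 1725 and 914 CPM in other Ms4a7 macrophages. It was thus below the other macrophages in both shNC libraries and above them in both shSELP libraries.

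The difference in response of Ccl4 was 1.57 on the log2 scale (SE 0.21, p 3.74e-06, adjusted p 0.0250, 4 of 4 libraries in that direction). Within the Dnase1l3 Ms4a7 macrophages alone its shSELP minus shNC difference was 1.13 (adjusted p 0.723, groups without overlap). The UMIs behind it were 853, 278, 403 and 195, found in 27 of 33, 20 of 25, 7 of 8 and 4 of 5 cells. The cell that stood apart in mix shSELP 2 gave 91 of the 195. The call ended in 5 of the alternatives, with adjusted p 0.419 without the cells of highest doublet score, 0.0996 with Dnase1l3 at 2 UMIs or more, 0.0847 without mix shNC 1, 0.162 without mix shNC 2 and 0.0743 without that 1 cell, where the difference was 1.24. Over all alternatives its adjusted p ran from 3.13e-07 to 0.419 and its value from 1.24 to 1.70.

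In the CD11b+ libraries Ccl4 lay on the other side, at 1976 CPM in shNC and 1220 CPM in shSELP, a ratio of 0.617 (95% counting interval 0.556 to 0.685). Other Ms4a7 macrophages there had 1452 and 1053 CPM. Whether the 2 experiments differ was not tested, and sorting differs between them, as does the day given in the labels.

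The last comparison is between the CD11b+ libraries, which hold 187 of the 258 cells and have 1 library per group, so no test was possible. The summed heat shock list was higher in shSELP, and the summed immediate early list was lower. Cd72 and Clec4a2 were near level. Both sums shifted in the same directions in the other Ms4a7 macrophages and the microglia of these libraries.

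Of 1264 genes with at least 100 UMIs over both libraries, 84 (6.65%) were at least 1.5-fold higher in shSELP and 48 (3.8%) at least 1.5-fold lower, with a median ratio of 0.989. The split depends on scaling, since with TMM factors 58 were higher and 75 lower, at a median ratio of 0.944. With Dnase1l3 at 2 UMIs or more, 28 of 596 genes were higher and 31 lower.

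Dnaja1, a co-chaperone of HSP70, was at 186 CPM in shNC and 505 CPM in shSELP, a ratio of 2.72 (95% counting interval 2.15 to 3.47), and in other Ms4a7 macrophages its ratio was 2.89. Hsp90b1, the chaperone GRP94 of the endoplasmic reticulum, had 1.77 (1.52 to 2.06) against 2.07 there, and Hsp90aa1, the inducible cytosolic HSP90, 1.76 (1.48 to 2.10) against 1.84. The lectin chaperone Canx had 1.69 and the stress-induced secreted factor Manf 1.66. Of 6 measured heat shock genes 3 were past 1.5-fold higher (2 with TMM factors), with a median ratio of 1.503. The summed heat shock level was 4663 CPM in shNC and 7353 CPM in shSELP, against 4216 and 6773 CPM in other Ms4a7 macrophages and 3880 and 6337 CPM in microglia.

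A pair of pan-macrophage genes was among the 10 highest, while the median ratio of the 10 measured genes of that list was 0.931 (0.888 with TMM factors). Adgre1, the F4/80 antigen, was at 171 and 333 CPM, a ratio of 1.94 (1.49 to 2.54), and Csf1r, the receptor for the macrophage growth factor CSF1, at 312 and 551 CPM, a ratio of 1.77 (1.45 to 2.16). In other Ms4a7 macrophages their ratios were 1.48 and 1.47. In the mix Adgre1 was level (log2 0.07, adjusted p 0.972, groups overlapping) and Csf1r had 0.45 (adjusted p 0.780, both shSELP libraries higher). Cyfip1 (1.71), the lysosomal mannosidase gene Man2b1 (1.68) and Wnk1 (1.63) complete the 10 highest.

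Mt1, a metallothionein that binds zinc and copper, was the lowest, at 974 CPM in shNC and 331 CPM in shSELP, a ratio of 0.339 (0.281 to 0.409), and other Ms4a7 macrophages had 0.474. Atf3, a stress-induced repressor, had 0.447 (0.356 to 0.557), Btg2, an antiproliferative immediate early gene, 0.483 (0.374 to 0.619), Jun, a subunit of AP-1, 0.486 (0.367 to 0.638) and Cebpb, a regulator of inflammatory genes, 0.523 (0.443 to 0.617). The other Ms4a7 macrophages had 0.411 for Atf3, 0.431 for Btg2, 0.522 for Jun and 0.372 for Cebpb. Of 12 immediate early genes 5 were past 1.5-fold lower (6 with TMM factors), with a median ratio of 0.698. Their summed level was 9575 CPM in shNC and 6749 CPM in shSELP, against 10633 and 6842 CPM in other Ms4a7 macrophages and 11127 and 7742 CPM in microglia.

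In the mix, the same genes did not pass the test. Btg2 had a log2 difference of -0.80 (unadjusted p 0.0387, adjusted p 0.716) and Atf3 -0.61 (adjusted p 0.730), with both shSELP libraries lower in each, and Jun 0.36 (adjusted p 0.853, groups overlapping). Zfp36 (0.566) and Zfp36l2 (0.565), which destabilise messenger RNAs, Arf5 (0.556) and Vamp8 (0.563) of vesicle traffic and Spp1 (0.498) were the remaining genes of the 10 lowest in the CD11b+ libraries. Immediate early and heat shock genes respond to the handling of cells, and the part of handling in these ratios was not tested.

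**Figure D4:**
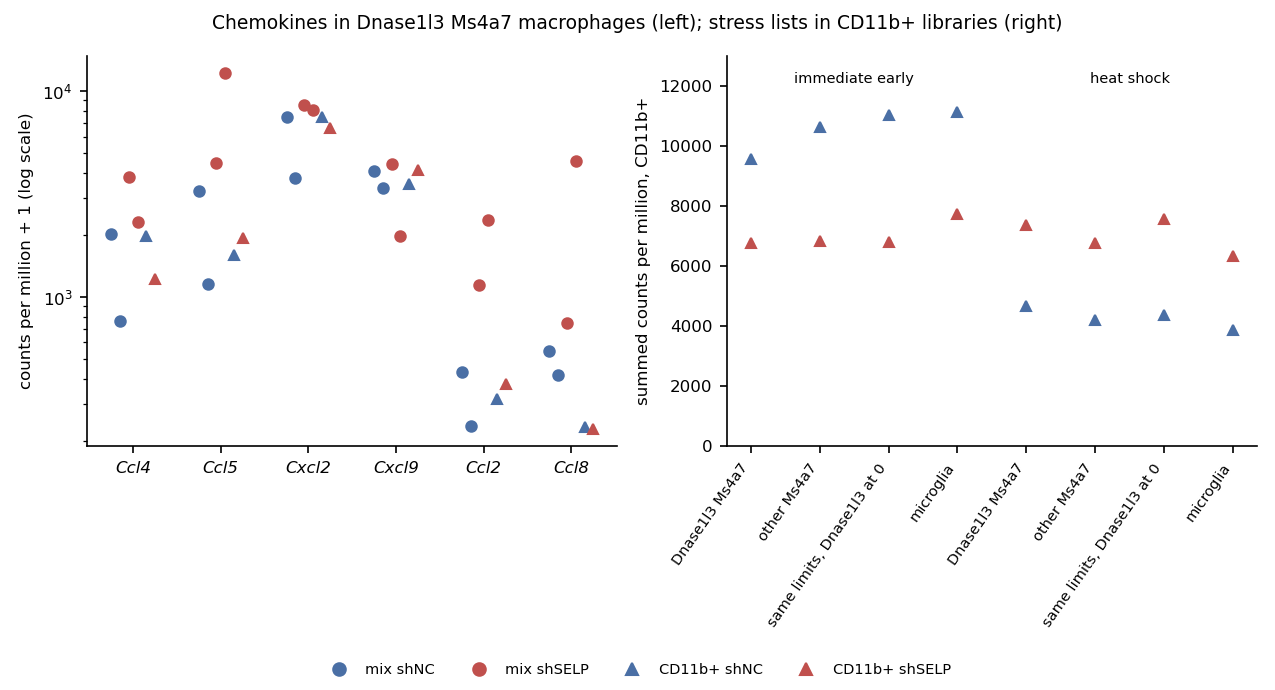
Left, levels of 6 chemokines in Dnase1l3 Ms4a7 macrophages (y axis, CPM plus 1, log scale) in each library, circles for the mix and triangles for CD11b+, blue for shNC and red for shSELP. Right, summed levels of the immediate early and heat shock lists (y axis, CPM, linear from 0) in 4 populations of the CD11b+ libraries, where shSELP is lower for the first list and higher for the second in each population.

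Of the 4 markers none was past 1.5-fold in the CD11b+ libraries, and the immune lists varied. The ratio was 0.891 for Cd72 (0.746 to 1.06), 0.766 for Slamf9 (0.571 to 1.02), 0.732 for Tmem176b (0.533 to 0.999) and 0.961 for Clec4a2 (0.674 to 1.36). None of 6 class II genes was past 1.5-fold (median 0.848; 1 of 6 lower with TMM factors), with Cd74 at 13330 CPM in shNC and 9965 CPM in shSELP (0.748, 0.720 to 0.776). Of 13 chemokines 2 were past 1.5-fold lower and 0 higher (median 0.953), with Ccl5 at 1594 and 1920 CPM (ratio 1.21, 1.10 to 1.33), Cxcl2 at 7483 and 6577 CPM (0.879, 0.838 to 0.922) and Ccl2 at 318 and 374 CPM (1.18, 0.947 to 1.47). None of 11 glycolysis genes was past 1.5-fold, with a median ratio of 0.779. Higher in shSELP at 1.5-fold or more were 2 of 8 complement genes (median 1.19; also 2 with TMM factors), 2 of 4 acute-phase genes (1.34; 0 with TMM factors) and 2 of 12 type I interferon genes (1.09; 0 with TMM factors), and 4 interferon-gamma GTPases had a median of 1.38 with none past 1.5-fold. The difference between the experiments was not tested.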

How the data were processed

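Droplet single-cell RNA sequencing measured 3′ messenger RNA of cells from GL261 tumours. The deposited tables hold counts, raw UMIs per gene and cell, which the authors made with Cell Ranger 1.3 and the genome mm10; per the study's methods the authors left out cells under 500 genes or over 10% mitochondrial UMIs and kept a random subset of cells. The deposited tables do not follow this fully: they hold cells under 500 genes (2289 cells, 2183 of them with 500 or more, in mix shNC 1), and their 2862 cells per CD11b+ group are fewer than the methods state. No cell chosen here exceeded 10% mitochondrial UMIs. Each table was read separately, and the group of a cell came from the prefix of its column. Members and gene lists were chosen with earlier results of these data known. The comparisons, tests and alternatives were written down before the count tables were read, except where the text says otherwise.

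UMIs were summed per library over the cells that pass the rule, so libraries and not cells are the units. The 14 genes that the rule reads were taken out of each tested table. In the mix, shSELP was compared with shNC by edgeR 4.0.16 (quasi-likelihood F test, filterByExpr, TMM) in R 4.3.3 with limma 3.58.1, and by DESeq2 1.42.0; p-values were adjusted by Benjamini-Hochberg over all genes tested, with a threshold of 0.05. The SE is the log2 difference divided by the root of F. The difference in response was the interaction of population and group with library as a block. Shares were compared by an exact two-sided permutation test. The CD11b+ libraries were compared by the ratio of CPM with an exact conditional binomial 95% interval, which covers counting error only. Levels against other populations were log2 ratios within a library with 20 CPM added. Microglia had at least 2 UMIs of P2ry12 and Tmem119 together and no Ms4a7. The population with Dnase1l3 at 0 was added after the data were seen.

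Named genes are the markers, the 2 most abundant members of each pathway or family list and every called gene in the mix, the 10 highest and 10 lowest ratios with at least 200 UMIs in the CD11b+ libraries, and the 15 highest and 15 lowest genes with the same sign in 6 libraries against other Ms4a7 macrophages; ribosomal, mitochondrial and unnamed genes were left out. Further genes were named after their values were seen. Doublet scores came from Scrublet in scanpy 1.11.5, with Python 3.11.15, numpy 2.4.6, scipy 1.17.1, pandas 2.3.3 and matplotlib 3.10.9. Alternatives changed the test, normalization, filter, depth, rule threshold, doublets, mitochondrial limit, pairing and libraries. The tests were also run on simulated library sums with known changes, drawn with the same dispersion for every gene. Single cells were not simulated, so that run does not cover genes whose UMIs come mostly from a single cell.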

Additional observations from a re-analysis of the deposited data

Results flagged for a closer look

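The response of Ccl4 differed between the Dnase1l3 Ms4a7 and the other Ms4a7 macrophages of the mix by the test of the difference itself, with 1.57 on the log2 scale (adjusted p 0.0250 by edgeR, in the same direction in 4 of 4 libraries). Its level rests on 8 and 5 cells in the shSELP libraries, and the call ended in 5 of the alternatives: adjusted p was 0.419 without the cells of highest doublet score, 0.0996 with Dnase1l3 at 2 UMIs or more, 0.0847 without mix shNC 1, 0.162 without mix shNC 2 and 0.0743 without 1 cell that gave 91 of the 195 UMIs of mix shSELP 2. Over all alternatives it ran from 3.13e-07 to 0.419.

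For a further 3 values the CD11b+ libraries went the other way from the mix, where both shSELP libraries were above both shNC libraries; the difference between the experiments was not tested. Ccl4 had a CD11b+ ratio of 0.617 and a log2 difference of 1.13 in the mix. Tmem176b had a CD11b+ ratio of 0.732 and a log2 difference of 1.04 in the mix, where 1 cell held all 27 UMIs of mix shSELP 2. Cxcl2 had a CD11b+ ratio of 0.879 and a log2 difference of 0.56 in the mix, where 1 cell held 323 of the 677 UMIs of mix shSELP 2; with Dnase1l3 at 2 UMIs or more the difference was -0.13.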

How the results depend on the processing

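Depth and cell number limit these results: the shSELP libraries of the mix give 105966 and 84192 UMIs from 8 and 5 cells. The difference in share kept its sign under every alternative run, from -2.98 to -0.779 percentage points, and from -1.21 to -0.85 without 1 library. Against other Ms4a7 macrophages 25 genes were past 2-fold, and 25 to 30 under the alternatives of rule, depth and doublets, of which 19 to 23 were shared. With a filter chosen after seeing the data, 18 were past 2-fold at 100 CPM as the mean of both populations (of 1297 genes) and 12 at 100 CPM in each (of 1222). For the genes named there 81 of the alternative values moved by less than the SD over libraries and 9 by more, and for the CD11b+ ratios 97 lay within the counting interval and 3 outside it.

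The count of called genes in the mix, 0 with edgeR, was 3 with DESeq2, 43 without the filter on low counts (of 11363 genes), 1 with cells thinned to 3000 UMIs (of 705 genes), and 2 to 13 without 1 library, where the lone library of a group is assumed to vary like the others. It was 0 without TMM (196 at an unadjusted p under 0.05), 0 without the highest doublet scores (195) and 0 with Dnase1l3 at 2 UMIs or more (192). Replicate numbers did not pair the libraries (r -0.067 between deviations of same-numbered libraries), and with the replicate number as a block the count was 0 (149 at an unadjusted p under 0.05). The count for the difference in response, 1 with edgeR, was 2 with DESeq2, 2 without TMM, 33 without the filter, 0 without the highest doublet scores (351 at an unadjusted p under 0.05), 0 with Dnase1l3 at 2 UMIs or more (477), 3 with thinned cells, 2 without the cell highest in border macrophage genes, an alternative chosen after seeing the data, and 10 to 13 without 1 library. The CD11b+ count of 132 was 59 with Dnase1l3 at 2 UMIs or more (596 genes measured), 70 with thinned cells (693) and 48 at a minimum of 200 UMIs (643), where fewer genes were measured. For the other counts the cause was not tested. Leaving out cells over 10% mitochondrial UMIs removed no cell.

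The mix values of single genes follow as log2 of shSELP over shNC; none of these genes was called with edgeR and all cells, and the cause of a changed sign was not tested. With DESeq2, the other sign was found for C1qa (-0.055) and Ctss (-0.048). Without TMM, the other sign was found for Psap (0.0029). Without the filter, the other sign was found for C1qa (-0.19), C1qb (-0.023), Bst2 (-0.11), Isg15 (-0.089), Slc15a3 (-0.068), Ctss (-0.18), Ms4a6d (-0.11) and Fcer1g (-0.11). Without the highest doublet scores, the other sign was found for C1qa (-0.092), Gbp7 (0.12), Tyrobp (0.12), Trem2 (0.18), Samhd1 (0.087), Unc93b1 (0.068), Slc15a3 (-0.039), Psap (0.17), Fcgr2b (0.071), Ftl1 (0.23) and Il1b (0.067). With Dnase1l3 at 2 UMIs or more, the other sign was found for B2m (0.046), Cxcl2 (-0.13), Gbp7 (0.23), Tyrobp (0.12), Trem2 (0.18), Unc93b1 (0.18), Psap (0.33), Npc2 (0.14), Ftl1 (0.42) and Aldoa (-0.12). With thinned cells, the other sign was found for Slamf9 (0.16), Tyrobp (0.17), Trem2 (0.20), Pld4 (-0.46), Samhd1 (0.33), Slc15a3 (-0.019), Ctss (-0.12), Psap (0.0046), Fcgr2b (0.19), Cd86 (-0.077) and Ftl1 (0.055). With the replicate block, the other sign was found for Isg15 (-0.21). Without the cell highest in border macrophage genes, the other sign was found for Tyrobp (0.042), Trem2 (0.087), Samhd1 (0.0062), Psap (0.045), Cd86 (-0.0054), Npc2 (0.0050) and Il1b (0.071). Over the fits without 1 library, the sign changed for Slamf9 (-1.01 to 0.076), Cd74 (-0.85 to 0.29), B2m (-0.22 to 0.055), C1qa (-0.083 to 0.084), C1qb (-0.26 to 0.48), Bst2 (-0.32 to 0.39), Isg15 (-1.55 to 0.88), Gbp7 (-1.22 to 0.66), Tyrobp (-0.11 to 0.011), Trem2 (-0.29 to 0.11), Pld4 (-0.22 to 0.59), Samhd1 (-0.65 to 0.40), Unc93b1 (-0.21 to 0.11), Slc15a3 (-0.28 to 0.39), Ctss (-0.043 to 0.095), Psap (-0.51 to 0.32), Ms4a6c (-0.70 to 0.30), Ms4a6d (-0.62 to 0.56), Fcgr2b (-0.18 to 0.037), Fcer1g (-0.16 to 0.28), Npc2 (-0.39 to 0.11), Fth1 (-0.017 to 0.46), Ftl1 (-0.61 to 0.18), Pkm (-0.15 to 0.58), Aldoa (-0.20 to 0.76), Il1b (-0.69 to 0.29) and Prdx5 (-0.10 to 0.50).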
